A study of Mus musculus with 5 samples.

Results

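RNA of the tumor given the high-dose combination of BMN and PAZA (BMN/PAZA-high) was compared with RNA of the saline control tumor (Control). This pair of groups shares no deposited table. BMN673 (talazoparib, here BMN) inhibits the enzymes PARP1 and PARP2, which sense DNA breaks and help in their repair. PAZA is a polymer nanocarrier with azacytidine (AZA) attached to it, and AZA is a cytidine analog that traps DNA methyltransferases on DNA once it has been phosphorylated and incorporated. The members of the comparison are 13979 gene symbols found both in the table with BMN/PAZA-high, which lists 16155 symbols, and in the table with Control, which lists 20236. Of the 5 libraries of the series, 2 enter the comparison, and each group has 1 library.

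Per the study's methods, LLC cells, a mouse Lewis lung carcinoma line, were grown as subcutaneous tumors in female C57BL/6 mice, given as 4 to 6 weeks of age, and the drugs were injected intravenously 5 times, every 3 days. Tumors were taken for sequencing a day after the last injection. Control mice were given saline, BMN/PAZA-high mice 2 mg/kg of BMN and of AZA, and BMN/PAZA-low mice 0.25 mg/kg of each. BMN alone and PAZA alone were the other groups, labelled as 0.25 mg/kg in the study's enrichment plots, below the high dose. By the sample labels, in contrast, the samples are LLC cells from culture, treated for 72 h, with lung as the source. Whether a library holds 1 tumor or a pool of tumors is not given in the sources used here, and the carcinoma is 1 transplanted line in every group. The leukocyte gene Ptprc (CD45) was at 36.6 units in Control and 27.7 in BMN/PAZA-high and the endothelial gene Pecam1 at 18.7 and 15.4, so genes of host cells were present in both libraries. Of 14 lung epithelium markers looked for, only 4 were among the shared symbols, and the surfactant genes were not among them.

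A unit here is scaled FPKM, the deposited value (read as FPKM, fragments counted relative to transcript length and library size) after each column was set to sum to the same total over the shared symbols. The log2 ratio is that of BMN/PAZA-high over Control after 1 unit was added to both, so it understates the difference of weakly expressed genes. Neither group has a replicate, so no test was possible: a gene is called higher or lower when the log2 ratio reaches 1 or -1, a 2-fold difference, and a call describes these libraries rather than the treatments. The number of reads behind a value is unknown, and counting intervals could not be given.

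Azacytidine and PARP inhibitors are both known to expose tumor cells to nucleic acid signals that can start an interferon response. Interferons switch on a broad set of inducible genes, including GTPases that attack intracellular pathogens, chemokines that attract T cells, and the machinery that presents peptides on MHC class I. Cytotoxic T cells and natural killer (NK) cells in turn kill their targets with perforin and granzymes and are the main source of interferon gamma in tumors. The genes of these steps, of DNA methylation and DNA repair, and of the cell types that a subcutaneous tumor can contain were therefore read as 54 lists.

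Several groups of genes differed between the libraries. Interferon-inducible GTPases, granzymes, T cell receptor genes and epidermal keratins were lower in the high-dose tumor, together with Dnmt1, the maintenance DNA methyltransferase. Skeletal muscle genes, the calprotectin genes S100a8 and S100a9 and several small nucleolar RNAs were higher. Among the 13682 symbols above 0 in at least one library, 438 were called higher (3.2%) and 677 lower (4.95%), and 10470 were at 1 unit or more in both. These 2 shares are the background of each count of calls given below. Most genes lay slightly below Control: 4851 symbols had a positive and 8831 a negative log2 ratio, and the median was -0.17, or -0.22 among the genes at 1 unit or more in both libraries. This shift went along with the share of 3 very abundant noncoding RNAs, the mitochondrial ribosomal RNAs mt-Rnr2 and mt-Rnr1 and the nuclear Rn7sk, which made up 30.6% of the Control sum and 38.1% of the BMN/PAZA-high sum. With the 20 most abundant genes and all mitochondrially encoded, ribosomal protein and hemoglobin genes left out of the sums, the median was 0.0091. Taken relative to the median of -0.22, 723 genes were at least 2-fold higher and 356 lower, so that higher genes made up 67.0% of the calls instead of 39.3%. A lower call with a log2 ratio between -1 and -1.22 is lost on that scale, also where this is not repeated below. Among genes given below without a ratio, it applies to Fanci, Mutyh, Cd79a, Btg2, Cidec and Impact. The list medians given below are to be read against the median of -0.17 for all genes. Across genes, which are not independent replicates, the log2 levels of both libraries had a Pearson correlation of 0.967.

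**Figure D1:**
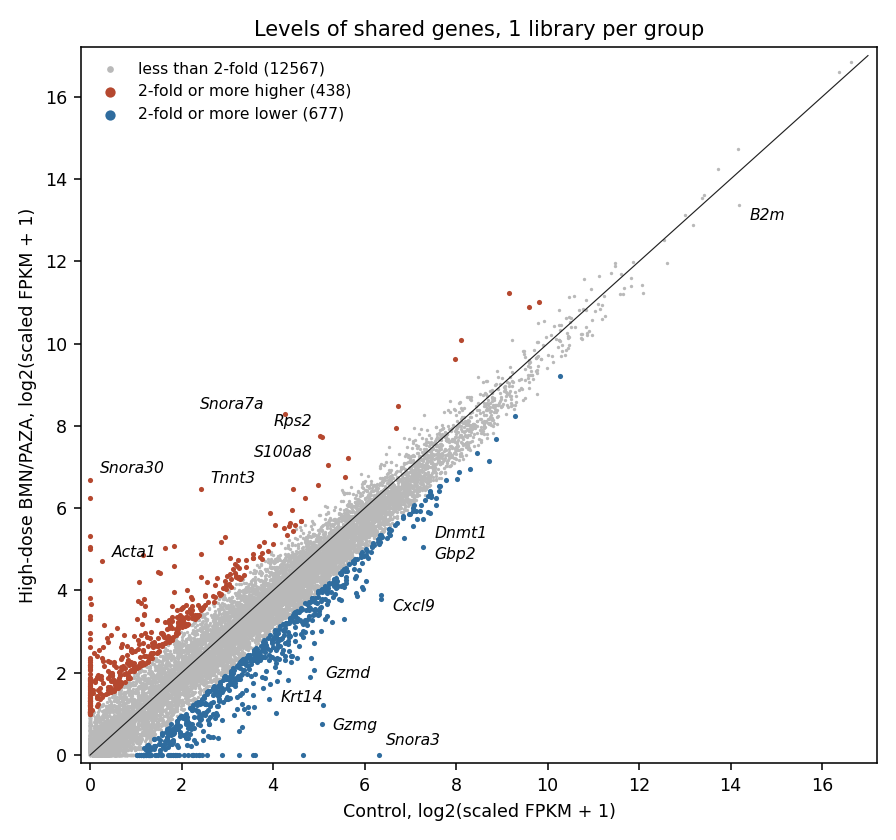
Level of each gene in Control (x axis) and BMN/PAZA-high (y axis), both as log2(scaled FPKM + 1), 1 library per group; red and blue points are the 438 genes called higher and the 677 called lower, and the line marks equal levels. Named genes of the text, such as Gbp2 and Gzmg below the line and Tnnt3 and S100a8 above it, lie away from the main cloud.

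Interferon-stimulated genes were lower as a list in the high-dose tumor. Of 48 genes with a value, 19 were called lower and 2 higher, against backgrounds of 4.95% and 3.2% of all genes, and 41 of the 48 had a negative log2 ratio. The list median was -0.85, beside -0.17 for all genes, and 12 of the 48 were still lower and 2 higher relative to the overall median. The summed level of the list was 1539 units in Control and 769 in BMN/PAZA-high.

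The interferon-inducible GTPases led this list. Gbp2, a guanylate-binding protein (GBP) that coats intracellular parasites and bacteria, was at 154 units in Control and 32.3 in BMN/PAZA-high, a log2 ratio of -2.21. Iigp1 and Igtp (Irgm3), immunity-related GTPases of the same defense, went from 80.5 to 13.8 units (-2.46) and from 35.5 to 11.7 (-1.52). The T cell-specific GTPase genes Tgtp2 and Tgtp1 read 12.7 and 5.04 units in Control against 2.09 and 0.677, although these near-identical copies may share reads. The whole GBP family, grouped after the values had been seen, had 8 of 10 members called lower with a median of -1.66, and its summed level was 321 units in Control and 80.6 in BMN/PAZA-high. The remaining 2 members, Gbp10 and Gbp11, were below 1 unit in both libraries.

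Other members of the list differed in size and direction. Irf1, an interferon-inducible transcription factor, was at 198 units in Control and 85.1 in BMN/PAZA-high (log2 ratio -1.21, a call lost relative to the median). Mx1, an antiviral GTPase, was called lower (10.7 and 2.34 units), Ifit1 and Rsad2 were lower without reaching 2-fold (32.8 and 18.7, and 18.6 and 9.67), and Isg15, a ubiquitin-like modifier, was nearly equal (16.7 and 17.4). Ifi27 was the opposite, at 19.4 units in Control and 46.4 in BMN/PAZA-high (1.22), and so was Mx2 at 0.786 and 2.67 (1.04).

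A property of the deposited values touches this list. For 368 of the shared symbols, the PAZA or BMN/PAZA-low value differed by more than 0.5% between tables from the ratio that all other genes keep, and 31 of the 48 interferon-stimulated genes, Irf1 and Mx1 among them, are such symbols. The BMN/PAZA-high column departed for 1 symbol only between its 2 tables and, like the Control column, has no value with more than 6 digits, but Control is in 1 table and could not be compared. Among the 17 interferon-stimulated genes that keep the ratio, 12 were called lower and none higher, with a median of -1.47, whereas the other 31 had 7 lower and 2 higher calls, with a median of -0.71. No BMN, PAZA or BMN/PAZA-low value is given below for a gene of the 368.

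Promoter windows of lower members are shown because this group moved together and its motifs are well known. Windows of RefSeq (GRCm38.p6), from 250 bases before to 50 bases after the gene start, were searched on both strands for the gamma-activated site (GAS, TTCNNNGAA) and for the interferon-stimulated response element (ISRE, GAAA followed after any 2 bases by GAAA). Capitals mark the matches in these 4 windows, read 5′ to 3′ on the strand of the gene.
Gbp2 chr3:142620413-142620712, plus strand: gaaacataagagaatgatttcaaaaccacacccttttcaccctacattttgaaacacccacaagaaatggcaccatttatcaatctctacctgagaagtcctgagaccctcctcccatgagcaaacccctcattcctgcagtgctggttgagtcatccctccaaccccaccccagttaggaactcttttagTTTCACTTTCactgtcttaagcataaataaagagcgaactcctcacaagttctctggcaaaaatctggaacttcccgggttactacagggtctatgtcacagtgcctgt
Gbp7 chr3:142530086-142530385, plus strand: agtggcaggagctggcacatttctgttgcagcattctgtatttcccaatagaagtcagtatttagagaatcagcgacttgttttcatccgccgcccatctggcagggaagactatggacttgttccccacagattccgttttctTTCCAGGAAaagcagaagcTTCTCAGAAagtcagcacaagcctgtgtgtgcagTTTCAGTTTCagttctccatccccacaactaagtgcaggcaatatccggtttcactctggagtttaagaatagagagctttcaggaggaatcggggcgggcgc
Igtp chr11:58199306-58199605, plus strand: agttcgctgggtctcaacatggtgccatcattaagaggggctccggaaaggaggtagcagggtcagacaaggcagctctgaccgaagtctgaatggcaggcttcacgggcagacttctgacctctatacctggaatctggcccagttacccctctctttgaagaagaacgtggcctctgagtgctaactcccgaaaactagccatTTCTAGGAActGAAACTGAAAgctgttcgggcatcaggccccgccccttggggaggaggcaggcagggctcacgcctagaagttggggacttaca
Irgm1 chr11:48871371-48871670, minus strand: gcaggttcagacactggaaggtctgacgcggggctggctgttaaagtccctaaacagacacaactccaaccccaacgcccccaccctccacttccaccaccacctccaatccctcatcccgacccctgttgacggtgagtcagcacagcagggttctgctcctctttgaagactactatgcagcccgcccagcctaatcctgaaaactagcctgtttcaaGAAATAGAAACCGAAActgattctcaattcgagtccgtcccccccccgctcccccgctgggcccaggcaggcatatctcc
Gbp2 holds 1 ISRE, Gbp7 2 GAS and 1 ISRE, Igtp 1 GAS and 1 ISRE side by side, and Irgm1 2 ISREs that overlap each other. Gbp7 (42.2 units in Control, log2 ratio -1.63) and Irgm1 (27.1 and 12.1, -1.10) were lower as were the genes named above. Among the 35 interferon-stimulated genes with a window, 31.4% held a GAS and 65.7% an ISRE, compared with 8.31% and 3.96% of the 10543 windowed symbols of the comparison. A GAS was held by 6 of 13 members called lower and 5 of 22 not called lower, an ISRE by 9 and 14, and either motif by 10 and 17, and the difference was not tested. These matches describe letters in a window and were not measured as binding.

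Downstream genes of the response followed only in part. Cxcl9, a chemokine that attracts T cells and depends strongly on interferon gamma, had 80.5 units in Control and 12.9 in BMN/PAZA-high (-2.55), whereas Cxcl10, which shares its receptor, had 28.3 and 20.7. Of 37 chemokine and chemokine receptor genes, 4 were called lower and 3 higher, beside 4.95% and 3.2% of all symbols, with a median of 0.15. The other lower genes were Ccl27a, a chemokine of keratinocytes (9.93 and 1.03), Ccl5 (4.74 and 1.37) and Ccl8 (70.8 and 32.6, -1.10). The 3 higher genes were Ppbp, a platelet chemokine (11.9 and 32.8, 1.38), Ccl17 (2.99 and 8.62, 1.27) and Ccl24. Ccl24 was listed at 0 in Control and at 2.52 in BMN/PAZA-high. The 29 chemokine genes that keep the ratio between tables had 3 higher and 2 lower calls, with a median of 0.30. The other 8, Cxcl9 among them, had 2 lower calls, none higher and a median of -0.48.

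Most MHC class I pathway genes were below Control by less than 2-fold. Of 23 such genes, 21 had a negative log2 ratio and 2 were called lower, with a list median of -0.30 beside -0.17 for all genes. Their summed level was 25249 units in Control and 15913 in BMN/PAZA-high, most of it from B2m. The 14 genes that keep the ratio between tables had 0 calls, a median of -0.30 and a sum of 5410 and 4404 units, and both called genes and B2m are among the other 9. Nlrc5, the transactivator of MHC class I genes, was at 64.6 units in Control and 17.7 in BMN/PAZA-high (-1.81), and Psmb9, a subunit of the immunoproteasome, at 160 and 73.1 (-1.12). The class I light chain B2m was at 18705 and 10595 units (-0.82) and the heavy chain H2-K1 at 1277 and 909 (-0.49), neither of which reached 2-fold. None of 10 MHC class II genes was called, and the class II chain H2-Ab1 read 118 and 64.8 units. Cd274, which encodes the checkpoint ligand PD-L1, was the 1 called gene among 24 checkpoint genes, at 20.4 and 8.78 units (-1.13). Its call is lost relative to the overall median, and Cd274 is among the symbols that differ between tables. Relative to that median, Nectin2 (5.43 and 11.6 units) and Pdcd1 (0.287 and 1.45) would instead be called higher. Of 20 cytosolic nucleic acid sensing genes upstream, 15 had a negative log2 ratio, with a median of -0.42. The 8 that keep the ratio between tables had a median of -0.23, near the -0.17 of all genes, and 1 lower call. The other 12, Irf3 among them, had a median of -0.57 and 1 higher call. Irf3 was called higher (8.82 and 18.8 units, 1.01) and Lrrc8c, a channel subunit that passes cyclic dinucleotides, lower (25.8 and 11.8, -1.06), while Tmem173, which encodes STING, was at 12.8 and 10.7. Ifnb1 was not among the shared symbols.

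Cytotoxic effector genes of T and NK cells were among the lowest of the 54 lists. Of 19 genes with a value, 10 were called lower and 0 higher, with a median of -1.28, close to the -1.23 of the epidermal markers described later, and all 10 remained lower relative to the overall median. The largest differences were in the granzymes, serine proteases that cytotoxic granules release into target cells. Gzmg read 32.7 units in Control and 0.684 in BMN/PAZA-high (-4.32), Gzmd 28.8 and 3.19 (-2.83), and Gzmb, the main cytotoxic granzyme, 19.2 and 5.84 (-1.56). Gzmd, Gzme, Gzmf and Gzmg lie within 1 cluster on chromosome 14 of GRCm38, with Gzmd at chr14:56129556-56132603 and Gzmg at chr14:56156581-56159579, and as close paralogs they may share reads. Prf1, which encodes the pore-forming perforin, was at 6.47 and 1.45 units (-1.61). Ifng itself was at 0.244 units in Control and listed at 0 in BMN/PAZA-high. The 7 granzyme genes, grouped after the values had been seen, summed to 161 units in Control and 29.7 in BMN/PAZA-high. The 4 effector genes with transcripts longer than the median of 3464 bases had a median of -0.28 and the 15 shorter ones -1.48.

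The other treated libraries were low in granzymes as well. Gzmd was at 0.781 units in BMN, 2.47 in PAZA and 2.58 in BMN/PAZA-low, so that Control held the one high value of the 5 libraries. The same holds for sums over the members that keep their ratio between tables. Over 14 effector genes the sum was 185 units in Control against 43.2 in BMN, 58.5 in PAZA, 53.3 in BMN/PAZA-low and 43.0 in BMN/PAZA-high. Over 17 interferon-stimulated genes it was 538 units in Control against 263, 284, 217 and 178 in the same order. These levels are set across separately made tables, and a property of the single Control library and an effect shared by all treatments cannot be told apart.

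T cell receptor genes were lower too, at low levels. Trac, the constant region of the T cell receptor alpha chain, was at 8.53 units in Control and listed at 0 in BMN/PAZA-high, as were Lck (4.21 in Control), Trbc1 (3.15) and Cd3e (1.98). Of 17 T cell markers with a value, 7 were called lower and 0 higher, with a median of -0.80 and 5 lower relative to the overall median. Trac was at 4.12 units in BMN and 8.99 in PAZA, and at 0.335 in BMN/PAZA-low. Over the 17 markers the sum was 123 units in Control, 174 in BMN, 136 in PAZA, 89.4 in BMN/PAZA-low and 68.4 in BMN/PAZA-high. BMN rather than Control was thus highest. Cd4 (0.515 and 0.861 units) and Cd8a (0.990 and 0.144) were below 1 unit in both libraries, so the markers that separate helper from cytotoxic T cells say little here. In bulk tissue, fewer cells of a type and less RNA per cell cannot be told apart.

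**Figure D2:**
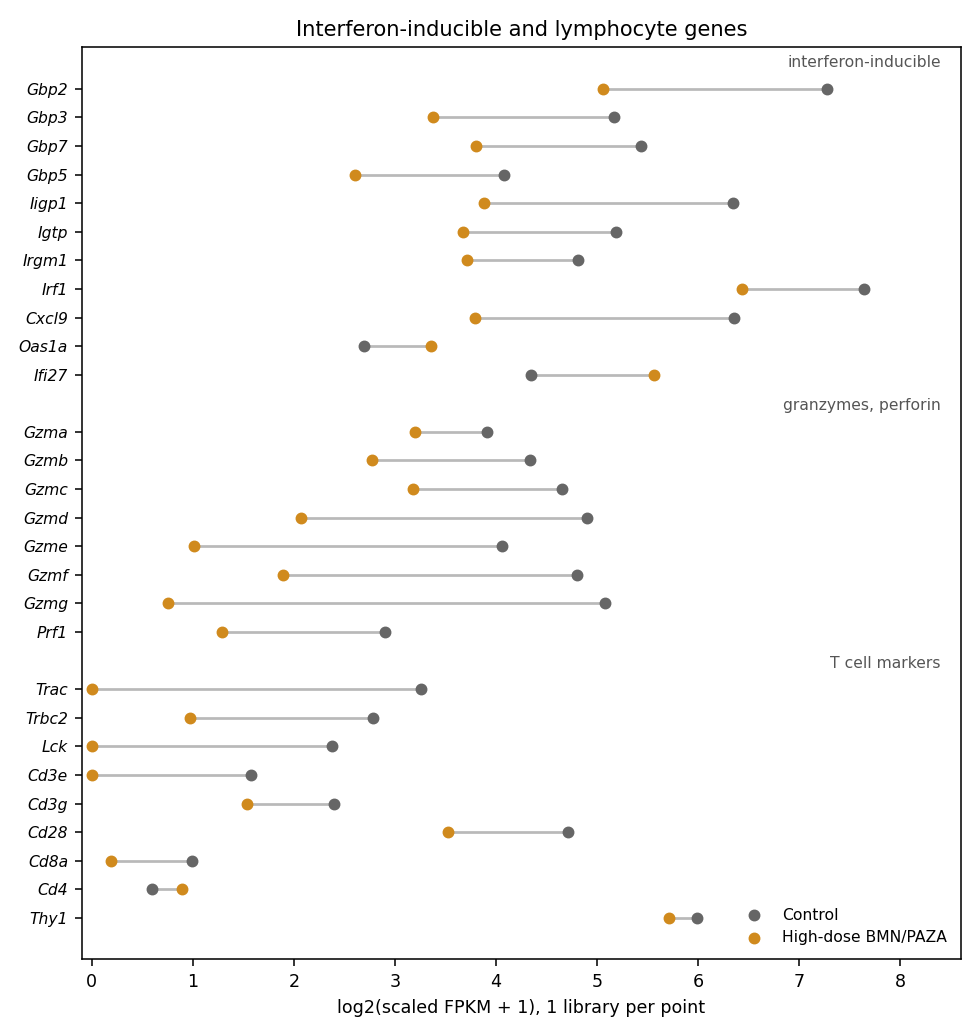
Levels of interferon-inducible genes, granzymes with perforin, and T cell markers in Control (grey) and BMN/PAZA-high (orange), as log2(scaled FPKM + 1), 1 library per point. The orange point is to the left for the GTPases, the granzymes and most T cell markers, and to the right for Oas1a, Ifi27 and Cd4.

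Other leukocyte lists had fewer calls. None of 8 general leukocyte markers was called, although 6 were below Control, with a median of -0.38. None of 10 NK cell markers was called either, 9 of them were below Control with a median of -0.47, and Ncr1, an activating receptor of NK cells, was at 2.15 units in Control and 1.18 in BMN/PAZA-high. Among 17 macrophage markers, Gpnmb was the 1 called gene (35.6 and 15.8 units, -1.13), and C1qb, a complement subunit made by macrophages, was at 77.9 and 47.3 (-0.71). The macrophage median of -0.16 was near that of all genes and turns positive on a centred scale. The 6 B and plasma cell markers with a value were low in both libraries and summed to 6.22 units in Control and 1.71 in BMN/PAZA-high. Of these, 5 were below Control and 2 were called lower, with a median of -0.50: the complement receptor Cr2 (1.89 and 0.0426 units) and Cd79a, a chain of the B cell receptor (1.97 and 0.397).

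Myeloid genes of the neutrophil lineage were split. S100a8 and S100a9, the calprotectin pair stored in the cytosol of neutrophils, were at 35.8 and 30.8 units in Control and at 132 and 93.2 in BMN/PAZA-high, log2 ratios of 1.85 and 1.57. S100a8 was at 31.5 units in BMN, 67.8 in PAZA and 48.0 in BMN/PAZA-low, so the high-dose tumor held the highest of the 5 values. Of 13 neutrophil markers, 3 were called higher and 1 lower, beside 3.2% and 4.95% of all symbols. The receptor genes that mark the same cells differed less, with Cxcr2 at 3.42 and 4.55 units and Csf3r at 2.71 and 2.64. Acod1, an inducible enzyme that makes itaconate, was lower (12.7 and 4.18, -1.40). Among 13 dendritic cell markers, Cd209a (0.386 and 2.78 units) and Clec10a (2.45 and 5.91) were called higher and 0 lower, beside the same shares.

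DNA methylation genes were compared because AZA acts on the methyltransferases. Dnmt1, which copies methylation to the new strand after replication, was at 155 units in Control and 52.7 in BMN/PAZA-high (-1.54). Its level was 150 units in BMN, 97.5 in PAZA and 77.8 in BMN/PAZA-low, so that all 3 libraries of tumors given PAZA were below both without it, and the high dose was lowest. Dnmt1 lies at chr9:20907206-20959888 of GRCm38. The de novo methyltransferase Dnmt3a was at 9.18 units in Control and 9.96 in BMN/PAZA-high, while Dnmt3b (0.0666 and 0.223) and the cofactor Dnmt3l (0.538 and 0.959) were below 1 unit in both. Uhrf1, which guides DNMT1 to hemimethylated sites, was at 81.2 and 75.2 units. Mbd3, of the methyl-binding domain family, was at 21.8 and 9.14 units (-1.17), a call lost relative to the overall median. Of 16 genes in the list, 3 were called lower and 0 higher, beside 4.95% and 3.2% of all symbols, with a median of -0.36.

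Genes that carry AZA into cells and activate it showed the widest spread of the drug-related lists. Uckl1, a uridine-cytidine kinase of the family that phosphorylates AZA, was at 28.7 units in Control and 5.55 in BMN/PAZA-high (-2.18). It was at 7.89 units in BMN, 26.2 in PAZA and 12.4 in BMN/PAZA-low, so that BMN alone stood near the high dose. Uck2, the kinase best known for this step, differed less (101 and 73.6, -0.45). Slc29a1, an equilibrative nucleoside transporter, was at 3.80 and 0.281 units (-1.90), and its relative Slc29a2 at 0.576 and 3.11 (1.38). Of the 17 genes, 2 were called in each direction, and the ribonucleotide reductase genes Rrm1 and Rrm2 were not among them (63.8 and 57.8, and 121 and 96.4).

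Targets of BMN differed from each other. Parp1 was nearly equal at 26.4 units in Control and 24.6 in BMN/PAZA-high (-0.10), and Parp2 was lower at 41.2 and 17.8 (-1.16, a call lost relative to the median). Parp2 was at 18.9 units in BMN, 22.9 in PAZA and 12.8 in BMN/PAZA-low, so that Control was the highest of the 5. Of 22 genes of PARP enzymes and poly-ADP-ribose turnover, Parp14, itself inducible by interferon, was the other lower call (32.3 and 15.2, -1.04), and 0 were higher. The Parp14 call is lost relative to the median as well, and Parp14 is among the symbols that differ between tables.

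DNA repair genes were close to the background. Of 38 homologous recombination and Fanconi genes, 2 were called higher and 1 lower, with a median of -0.16 beside -0.17 for all genes. Brca1, which starts homologous recombination with its partners, was at 37.7 and 31.2 units. The called genes were Fancc (0.699 and 3.32 units) and Ube2t (6.04 and 14.2), higher, and Fanci (11.4 and 5.11), lower, all of them parts of the crosslink repair pathway. In 38 genes of excision, mismatch and end-joining repair, the glycosylase genes Nthl1 (2.57 and 0.451) and Mutyh (1.67 and 0.172) were the 2 lower calls and 0 were higher.

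Proliferation genes showed no calls. None of 38 replication genes and none of 32 mitosis and G2 genes reached 2-fold, with medians of -0.14 and -0.21 that turn positive on the centred scale. Mki67, a marker of cycling cells, was at 154 units in Control and 108 in BMN/PAZA-high (-0.52), and Mcm7, part of the replicative helicase, at 162 and 91.3 (-0.82). Among 29 p53 targets, Perp (11.2 and 4.16 units) and Btg2 (4.91 and 1.89) were called lower and 0 higher, and Cdkn1a, the p53-induced inhibitor of cell cycle kinases, was at 5.08 and 5.28. Perp is also expressed in keratinocytes, where it stabilizes desmosomes, and its level was 39.7 units in BMN, 2.48 in PAZA and 0.433 in BMN/PAZA-low. In 19 BCL2 family genes, Bmf, a death-promoting member, was at 2.76 and 0.176 units (-1.67), and Bcl2a1d, a survival member, at 18.0 and 6.56 (-1.33).

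Genes silenced by DNA methylation in normal somatic cells were looked at as a readout of demethylation. Only 17 of 39 germline genes were shared symbols, and of 16 with a value 0 were called in either direction, with a median of -0.23. Rhox5, a homeobox gene known to be active in many mouse tumor lines, was at 1462 units in Control and 1355 in BMN/PAZA-high, and Sycp3, of the meiotic chromosome axis, at 0.671 and 1.67. The shared table does not hold symbols that were silent in both Control and PAZA, since the Control table lists 0 such rows, so a germline gene turned on only by the high dose would be missing. Imprinted genes are expressed from a single parental allele. H19 was listed at 0 in Control and was at 8.86 units in BMN/PAZA-high, Nnat was listed at 0 and at 2.11, and Rian, a noncoding RNA of another imprinted cluster, was at 2.93 and 9.51 (1.42). Of 24 imprinted genes, 3 were called higher and 1, Impact (45.8 and 21.8 units), lower, beside 3.2% and 4.95% of all symbols. In all 16 were above Control, with a median of 0.31, while the summed level was 2240 units in Control and 1741 in BMN/PAZA-high, most of it from Gnas (1991 and 1529). H19 was at 6.33 units in BMN, 6.67 in PAZA and 0.335 in BMN/PAZA-low, lowest in Control and BMN/PAZA-low as were the muscle genes described next. H19 is also expressed in muscle, and whether these levels are linked was not tested.

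Skeletal muscle genes had the highest median of all lists. Of 23 markers with a value, 19 were called higher and 0 lower, with a median of 2.42, and their summed level was 44.4 units in Control and 383 in BMN/PAZA-high. Acta1, skeletal alpha-actin, was at 0.199 and 25.4 units (4.46), Tnnt3, fast troponin T, at 4.33 and 87.1 (4.05), and Myh4, a fast myosin heavy chain, at 1.23 and 28.1 (3.71). The other libraries differed widely in muscle genes. Tnnt3 was at 77.8 units in BMN, 18.9 in PAZA and 3.83 in BMN/PAZA-low, and over 22 markers the sum was 43.4 units in Control, 316 in BMN, 134 in PAZA, 45.5 in BMN/PAZA-low and 382 in BMN/PAZA-high. Whether muscle beside the tumor was part of the sampled tissue was not tested.

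Epidermal genes went the other way. Of 19 keratinocyte and hair follicle markers, 11 were called lower and 0 higher, with a median of -1.23. Krt14, a keratin of basal epidermis, was at 14.1 units in Control and 1.59 in BMN/PAZA-high (-2.54), its partner Krt5 had a log2 ratio of -2.51, and Krt10 of the upper layers was at 24.2 and 7.06 (-1.64). Krt14 was at 62.9 units in BMN, 1.54 in PAZA and 0.505 in BMN/PAZA-low. Over 18 of the markers the sum was 209 units in Control, 567 in BMN, 108 in PAZA, 110 in BMN/PAZA-low and 120 in BMN/PAZA-high, highest in BMN. Ccl27a moves with these genes, at 12.9 units in BMN and 1.03 in PAZA. Krt8, a keratin of simple epithelium, differed little (115 and 135).

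Endothelial genes had their lowest sum in Control. Over 19 markers the sum was 77.2 units in Control, 124 in BMN, 126 in PAZA, 95.1 in BMN/PAZA-low and 95.8 in BMN/PAZA-high. Of these 19 endothelial markers, 16 were above Control and 3 were called higher and 0 lower, beside 3.2% of all symbols called higher, with a median of 0.27 compared with -0.17 for all symbols. The called genes included Lyve1 of lymphatic vessels (1.20 and 3.77 units) and Tie1 (0.515 and 2.36), while Cdh5, of endothelial junctions, was at 5.67 and 10.3. Of 30 fibroblast and collagen genes, 20 were above Control, with a median of 0.16. Col6a3 was higher (18.6 and 39.7, 1.05) and Acta2, smooth muscle actin, lower (6.20 and 1.91, -1.31). Postn, a matrix protein of activated fibroblasts, was at 72.3 and 43.5. In the adipocyte list the carbonic anhydrase Car3 was higher (1.88 and 20.5, 2.90), Scd1 (217 and 102, -1.09) and Cidec (1.66 and 0.166) were lower, and Car3 is also a gene of slow muscle.

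**Figure D3:**
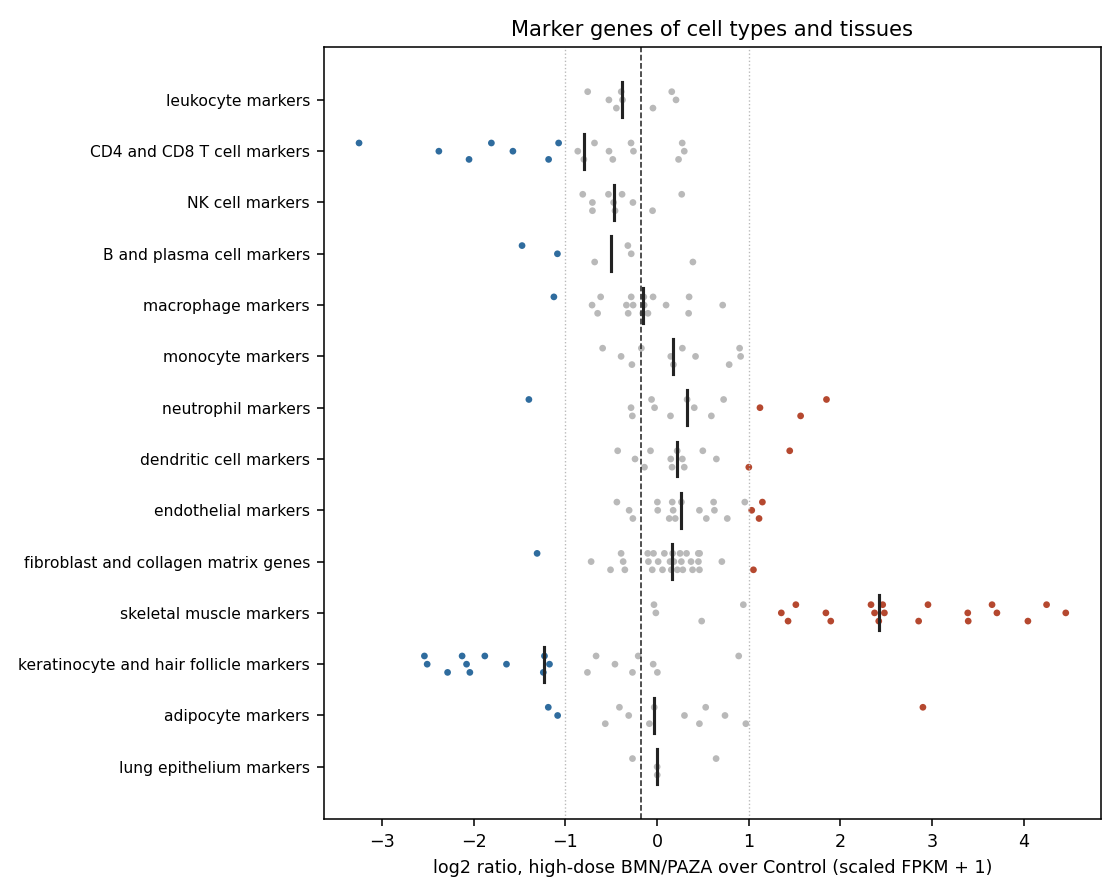
Log2 ratio of BMN/PAZA-high over Control for each member of 14 cell type and tissue lists, with black bars at the list medians, the dashed line at the median of all genes and dotted lines at the 2-fold calls; red and blue points are calls. Skeletal muscle markers lie to the right, with a median of 2.42, and keratinocyte and T cell markers to the left.

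Genes tied to uptake of the carrier were lower only in part. Fibronectin, a protein of serum and extracellular matrix, had 1098 units of Fn1 in Control and 836 in BMN/PAZA-high (-0.39), and its receptor subunit Itga5 had 6.88 and 5.11. Of 19 genes of fibronectin, integrins and clathrin uptake, 3 were called lower, beside 4.95% of all symbols, among them the dynamins Dnm2 (72.2 and 34.7, -1.04) and Dnm1 (9.18 and 4.01, -1.02), which pinch vesicles from the membrane. The third was the integrin subunit Itga8 (1.63 and 0.108 units). The dynamin calls are lost relative to the median. Mmp13, a collagenase, was at 56.0 and 13.6 units (-1.96) and Timp3, an inhibitor of metalloproteinases, at 16.4 and 5.36 (-1.45).

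Metabolic and stress genes were mostly uncalled. Of 35 glycolysis and hypoxia genes, 5 were lower and 1 higher, beside 4.95% and 3.2% of all symbols, with the hexokinases Hk1 (175 and 79.6 units, -1.13) and Hk2 (44.1 and 20.2, -1.09) lower and the metallothionein Mt2 higher (35.1 units in BMN/PAZA-high, 1.37). The calls of Hk1, Hk2, Pfkp and Pfkfb4 are lost relative to the overall median. None of 29 integrated stress and unfolded protein response genes and none of 25 NRF2 antioxidant genes was called. Hspa8, the constitutive HSP70 chaperone, was at 4313 and 2412 units (-0.84), and Hspa1b, an inducible one, at 3.64 and 9.84 (1.22). All 13 mitochondrially encoded genes had a positive log2 ratio with a median of 0.19, without a call, and 51 of 79 ribosomal protein genes were positive with a median of 0.13. Rps2 stood out among the latter, at 31.5 units in Control and 216 in BMN/PAZA-high (2.74), with 29.5 in BMN, 43.3 in PAZA and 58.7 in BMN/PAZA-low. Rps2 has many processed copies in the genome, and how reads were assigned between them is not given in the sources used here. Gapdh, whose copies are also many, was at only 3.85 and 1.84 units, compared with 3717 and 4077 for Actb.

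**Figure D4:**
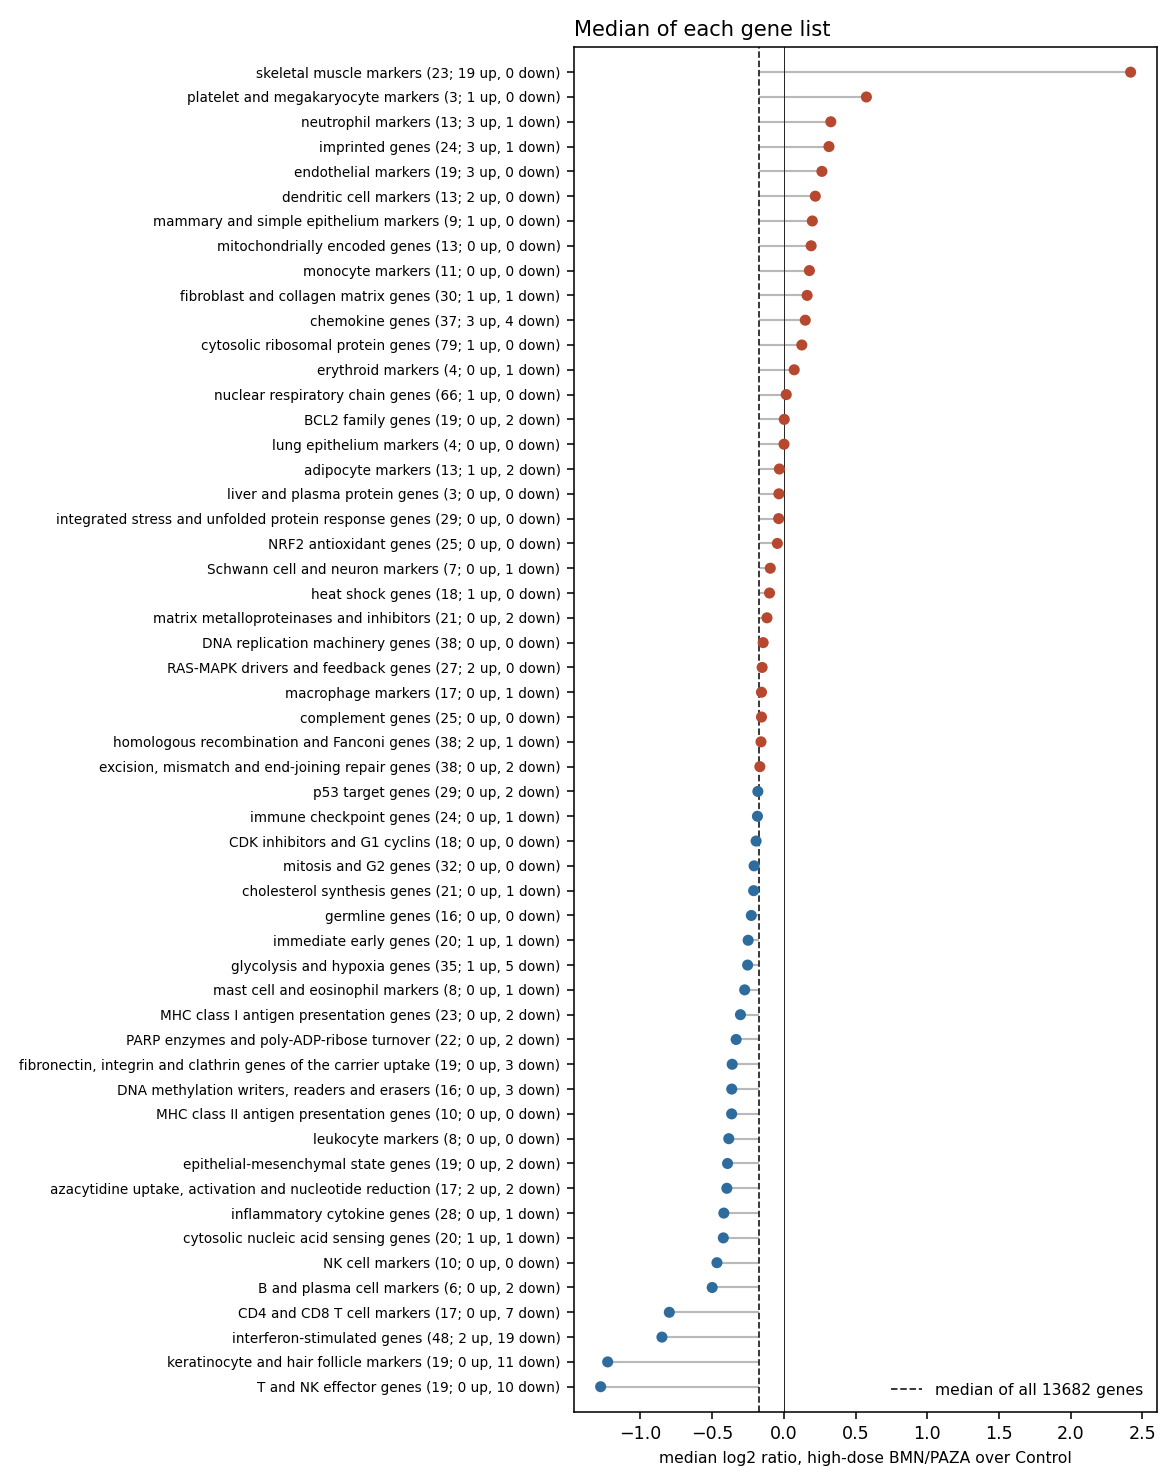
Median log2 ratio of BMN/PAZA-high over Control for each of 54 gene lists, with the number of members with a value and of calls in each direction; the dashed line is the median of all 13682 genes and the thin line is 0. Skeletal muscle markers stand at the top (2.42), and effector genes, epidermal markers, interferon-stimulated genes and T cell markers at the bottom (-1.28, -1.23, -0.85 and -0.80).

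**Figure D5:**
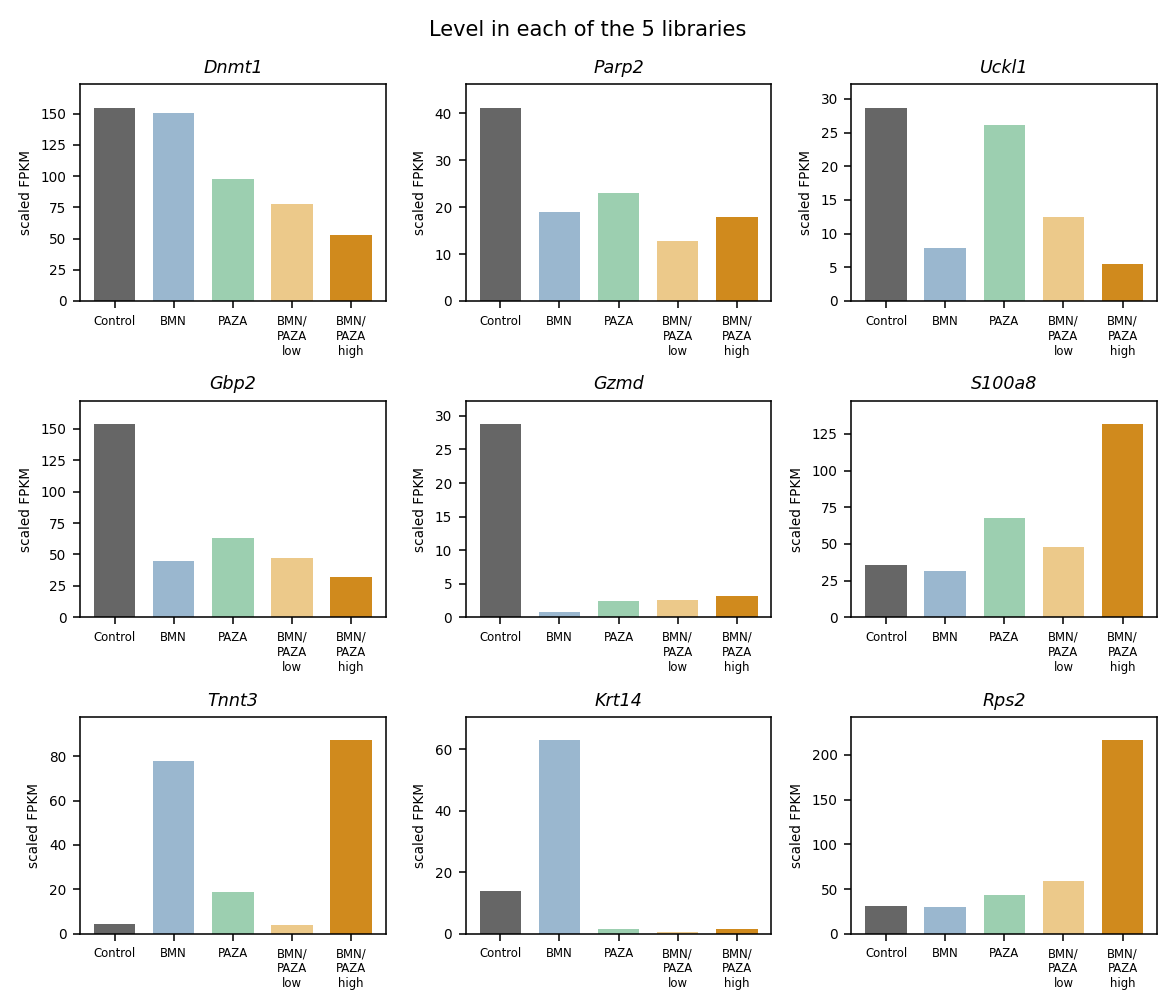
Scaled FPKM of 9 genes in each of the 5 libraries, 1 library per bar, on linear axes that start at 0. Control is the high bar for Gbp2, Gzmd and Parp2, BMN/PAZA-high for S100a8 and Rps2, BMN for Krt14, and BMN together with BMN/PAZA-high for Tnnt3, while Dnmt1 is lowest in the high-dose library.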

How the data were processed

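The authors mapped reads to GRCm38 and deposited 5 tables, each with 1 value per gene symbol for 2 groups, and HISAT2 and StringTie are named in the submitters' processing notes without versions. The deposited values have no stated unit and were taken as FPKM by their form, and without read counts their depth is unknown. RNA was labelled total RNA. Where a symbol was repeated, the row with the highest mean was kept. Control and BMN/PAZA-high were taken over their 13979 shared symbols, each column was scaled to a sum of 1000000, and the log2 ratio was computed after 1 unit was added. Genes at 0 in both libraries were left out. Other libraries were scaled alike, BMN/PAZA-low from its table with PAZA, and a value more than 0.5% off the constant ratio between 2 tables was not printed. The members, the 54 lists and the rules were chosen with earlier results of these data known.

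Named genes were the 15 highest and the 15 lowest with at least 5 units in the higher library, without predicted models and pseudogenes, the 4 largest ratios of each list among genes with at least 1 unit, and a fixed set of drug, repair and immune genes. Others, members of lists and of families grouped after their values were seen, were chosen after the values were known. RefSeq positions (GRCm38.p6) were matched by symbol for 13852 symbols. No test was made, because each group has 1 library. Alternatives were another pseudocount, filters on low values, other scalings, a stricter call and lists without the symbols that differ between tables. Splitting by transcript length was added after the data were seen. Some genes of the lists are not reported here by name. The steps were tested on simulated data. Scripts ran on Python 3.11.15 with matplotlib 3.10.9, pandas 2.3.3 and numpy 2.4.6.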

Additional observations from a re-analysis of the deposited data

How the results depend on the processing

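The counts of calls depended on the scaling and on how weak genes were treated. Against 438 higher and 677 lower genes, a pseudocount of 0.1 gave 1191 and 1553, since more weak genes then pass 2-fold, and genes at 1 unit or more in both libraries gave 231 higher. Centring on the median gave 723 higher and 356 lower, and the 75th percentile 728 and 386. The sum without the 20 most abundant, the mitochondrially encoded, the ribosomal protein and the hemoglobin genes gave 984 higher. The columns as deposited gave 359 lower. A call at a log2 ratio of 2 left 61 higher and 55 lower, by its stricter threshold. Filtering at 1 unit in at least one library, summing repeated rows, leaving out the symbols that differ between tables and taking the high-dose column from its other table kept both counts within 1.5 times. Of 231 named genes, 108 were called, and 25 of these calls were lost on the centred scale, 29 with the columns as deposited, 20 at the 75th percentile and 17 without the abundant genes, and none of the named ratios that were called changed sign. The sign of the list median changed in 18, 4, 18 and 16 of 54 lists under the same 4 scalings. Over these scalings and the one used here, the median stayed between -0.85 and -0.58 for interferon-stimulated genes, -1.30 and -0.996 for effector genes, -1.38 and -0.84 for epidermal markers and 2.16 and 2.96 for muscle markers. No paired analysis was possible because each group has 1 library. No replicate could be left out for the same reason. Depth is unknown, so how far counting error limits genes near 1 unit cannot be stated.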

Other observations

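Small noncoding RNAs held the extremes of the comparison. Of 35 small nucleolar, small nuclear and guide RNAs with a value, 11 were called higher and 2 lower, beside 3.2% and 4.95% of all symbols. Snora30, a guide of RNA pseudouridylation, was listed at 0 in Control and was at 101 units in BMN/PAZA-high, with 26.8 in BMN, 86.1 in PAZA and 0 in BMN/PAZA-low, while Snora3 was at 78.0 units in Control and listed at 0 in BMN/PAZA-high. Snora7a was at 18.3 and 310 units, a log2 ratio of 4.01, and at 134 in BMN, 134 in PAZA and 40.5 in BMN/PAZA-low. Such RNAs are short, with 130 bases for the longest Snora30 transcript, and FPKM weighs each fragment by that length. Fragment lengths and read counts are unknown here, and how far length shapes these ratios was not tested.

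Replication-dependent histone genes, whose mRNAs lack a poly(A) tail, were looked at after the values had been seen. Of 52 with a value, 6 were called higher and 3 lower, beside 3.2% and 4.95% of all symbols, with a median of 0.29. H4c12 was listed at 0 in Control and was at 13.1 units in BMN/PAZA-high, H3c2 was at 7.39 and 26.6 units, and the abundant H2bc18 at 852 and 649.

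The log2 ratio varied with transcript length and level. Among protein-coding genes at 1 unit or more in both libraries, its median was -0.065 in the fifth with the shortest transcripts and -0.34 in the fifth with the longest. By mean level it was -0.071 in the fifth with the lowest levels and -0.32 in the fifth with the highest.

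Some of the 15 lowest genes belonged to none of the lists. Supt4b, a transcription elongation factor gene with the close copy Supt4a, was at 33.2 units in Control and 1.31 in BMN/PAZA-high (-3.88), whereas Supt4a was at 59.6 and 61.8. Stxbp6 was at 8.59 and 0.509 units, Rdh5 at 8.96 and 0.607, and Tmsb15b2 and Maats1os, at 10.8 and 6.39 in Control, were listed at 0 in BMN/PAZA-high.

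Some symbols could not be compared. The table with BMN/PAZA-high lists 2176 symbols that the table with Control does not, of which 1608 were at 0 in BMN/PAZA-high and 29 at FPKM 1 or more, led by the small nucleolar RNA Snord33 at an FPKM of 1487. The table with Control lists 6257 symbols that the other does not, of which 5469 are predicted models and 107 others were at FPKM 1 or more in Control. Among the symbols of the table with Control, 21 had been turned into numbers.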
